A study of Mus musculus with 118 samples.

Results

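The glutamate and GABA receptor genes described here are 35 mouse genes that encode subunits of the receptors for the main excitatory and the main inhibitory transmitter of the brain, 23 for glutamate and 12 for GABA, out of 26180 genes with a curated RefSeq transcription start site (TSS). They were chosen by name from a fixed list. For each gene the promoter was taken as 2500 bp on either side of every curated TSS on the mm10 genome, and a gene was counted as having a peak where at least 1 bp of a peak lay in that window. The peaks came from 3 lists of regions bound by Polycomb proteins in mouse embryonic stem cells (ESCs), holding 3680 peaks for PCGF2, 7438 for SUZ12 and 18643 for RING1B.

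The series holds 118 calibrated ChIP-seq samples in 42 groups. Calibrated ChIP-seq is immunoprecipitation of chromatin followed by sequencing, with cells of another species added as a reference, which were human HEK293T cells for the cross-linked samples behind these lists. The lists were made from untreated cells of 2 E14 ESC lines, each of them 1 clone. PRC1CPM cells (clone 41) carry Rosa26::ERT2-Cre, a tamoxifen-activated recombinase. Their Ring1aI50A/D53K alleles have point mutations in the catalytic domain of RING1A, and their Ring1b(WT->I53A/D56K)fl/fl alleles switch from wild type to a catalytic mutant on tamoxifen. PRC1CKO cells (clone B9), with the same recombinase, are Ring1a-/- and lose their Ring1bfl/fl alleles on tamoxifen. Both lines therefore lacked active RING1A even before treatment, and the peaks describe cells whose only active form of the enzyme was RING1B. The series has 3 untreated PRC1CPM samples for each of RING1B, SUZ12 and PCGF2 and 3 untreated PRC1CKO samples for SUZ12, and the authors pooled them or took their intersection before they deposited the lists. The lists carry no replicate values, no peak heights and no depth. Each width and count below is therefore a single value with no error, and no test was made. Peaks also say nothing of transcription, so the identity of the cells could not be checked by expression; of 10 ESC marker genes, 7 had a RING1B peak and 2 a SUZ12 peak.

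RING1B is the catalytic subunit of Polycomb repressive complex 1, which ubiquitylates histone H2A. SUZ12 is a core subunit of Polycomb repressive complex 2, which methylates histone H3 at lysine 27. PCGF2 belongs to the canonical form of complex 1, which can bind chromatin already methylated by complex 2. In ESCs these complexes occupy CpG islands, most densely at developmental genes that are silent. Glutamate opens AMPA, kainate and NMDA receptor channels and acts on the G protein-coupled metabotropic receptors, whereas GABA opens the chloride channels of the GABA-A class and acts on the G protein-coupled GABA-B receptor. These receptors are best known from neurons, where they set fast and slow synaptic transmission.

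Promoter sequences are shown for 5 genes that span the peak classes found below, 250 bases upstream of a start in each case, read 5′ to 3′ along the gene's strand, with every CpG dinucleotide in capitals. They come from a set of 32851 RefSeq promoter windows on GRCm38.p6, in which 26 of the 35 genes had an entry, although all 35 have a curated RefSeq TSS. The 9 without one were Gabrd, Gria1, Gria3, Grik1, Grin2a, Grin2b, Grin3a, Grm4 and Grm5. The first pair belongs to Grm8, a metabotropic receptor gene with 3 starts, of which 2 far-apart ones are shown. The stretch chr6:28135147-28135396 (minus strand) leads to a start covered by peaks of all 3 proteins. Another, chr6:28126427-28126676 (minus strand), leads to a start 8720 bp further downstream that no peak covered.
Grm8 upstream start: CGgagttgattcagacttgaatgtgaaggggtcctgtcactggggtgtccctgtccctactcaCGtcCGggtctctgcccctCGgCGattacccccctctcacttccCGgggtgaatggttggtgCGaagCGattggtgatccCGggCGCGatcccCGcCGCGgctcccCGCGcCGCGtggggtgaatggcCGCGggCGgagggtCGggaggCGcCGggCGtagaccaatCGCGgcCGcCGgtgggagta
Grm8 RefSeq Select start: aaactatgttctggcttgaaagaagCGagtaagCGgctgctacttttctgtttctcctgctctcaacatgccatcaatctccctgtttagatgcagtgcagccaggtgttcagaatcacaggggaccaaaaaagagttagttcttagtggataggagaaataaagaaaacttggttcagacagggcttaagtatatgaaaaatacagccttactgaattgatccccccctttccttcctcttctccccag
The first holds 29 CpGs and the second holds 2, against a median of 6 over the same stretch of all 32851 promoter entries. Grin1 at chr2:25319188-25319437 (minus strand) and Gabbr1 at chr17:37045716-37045965 (plus strand) are the glutamate and GABA receptor genes with the widest RING1B peak among those without PCGF2, and they hold 27 and 16 CpGs.
Grin1: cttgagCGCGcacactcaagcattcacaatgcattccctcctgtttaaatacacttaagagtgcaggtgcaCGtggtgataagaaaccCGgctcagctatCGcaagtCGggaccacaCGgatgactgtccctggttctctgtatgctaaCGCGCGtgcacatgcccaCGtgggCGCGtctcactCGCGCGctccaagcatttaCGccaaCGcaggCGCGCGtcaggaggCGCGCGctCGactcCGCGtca
Gabbr1: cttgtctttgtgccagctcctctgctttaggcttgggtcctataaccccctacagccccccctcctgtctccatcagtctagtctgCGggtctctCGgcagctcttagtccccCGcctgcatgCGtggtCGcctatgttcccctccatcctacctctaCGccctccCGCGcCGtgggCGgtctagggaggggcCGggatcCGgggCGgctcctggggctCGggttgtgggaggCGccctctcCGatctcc
Gabra5 at chr7:57510060-57510309 (minus strand) had the widest PCGF2 peak of the GABA receptor genes and holds 9 CpGs, and Gabra6 at chr11:42321073-42321322 (minus strand), with 2 CpGs, had the lowest CpG observed/expected ratio (CpGs over the number expected from C and G content, around the Select start) of the genes with no peak.
Gabra5: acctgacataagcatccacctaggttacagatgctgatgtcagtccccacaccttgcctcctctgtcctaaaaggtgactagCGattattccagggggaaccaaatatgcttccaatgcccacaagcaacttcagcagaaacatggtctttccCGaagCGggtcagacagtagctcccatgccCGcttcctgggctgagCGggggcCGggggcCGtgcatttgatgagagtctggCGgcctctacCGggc
Gabra6: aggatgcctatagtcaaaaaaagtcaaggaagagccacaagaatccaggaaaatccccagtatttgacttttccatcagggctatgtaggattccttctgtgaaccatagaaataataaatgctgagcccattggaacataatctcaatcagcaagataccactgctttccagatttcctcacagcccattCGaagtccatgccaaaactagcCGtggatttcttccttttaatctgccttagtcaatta
Within this set the start with all 3 proteins was not always the one with the most CpGs, since Grin1, without PCGF2, has more than Gabra5. Both strands of the 33 receptor windows in the RefSeq table, 250 bases before to 50 after a start, were searched for CACGTG and TTCAGCACC. CACGTG is the E-box that MGA-MAX and related factors bind, and TTCAGCACC is only the left part of the longer REST site. CACGTG was found in the window of Grin1 alone, and in 7.15% of all windows. TTCAGCACC was found in the window of Grm2 alone, and in 0.371% of all windows.

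Most of the receptor genes had Polycomb peaks at their promoters. RING1B was found at 31 of 35 (88.6%), against 53.2% of all genes. SUZ12 was found at 29 (82.9%), against 24.8% of all genes. PCGF2 was found at 23 (65.7%), against 13.5% of all genes. All 23 genes with PCGF2 also had RING1B and SUZ12, as did nearly all genes with PCGF2 (3508 of 3522). Of all genes, 13.4% had this combination. A further 6 genes had RING1B and SUZ12 without PCGF2 (Gria4, Grin1, Grin2d, Grin3b, Grm5 and Gabrd). Only Grik5 and Gabbr1 had RING1B alone, whereas RING1B without SUZ12 was found at 28.7% of all genes. Gria1, Gabra3, Gabra6 and Gabrg1 had no peak of any kind, as did 46.5% of all genes. Of the 31 genes with RING1B, 29 had SUZ12, while 46.0% of all genes with RING1B did. Of those 29, PCGF2 was present at 23, and at 54.7% of all genes with both RING1B and SUZ12. The shares were high for glutamate receptor genes (RING1B 22, SUZ12 21 and PCGF2 16 of 23) and somewhat lower for GABA receptor genes (9, 8 and 7 of 12), a gap that was not tested.

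**Figure D1:**
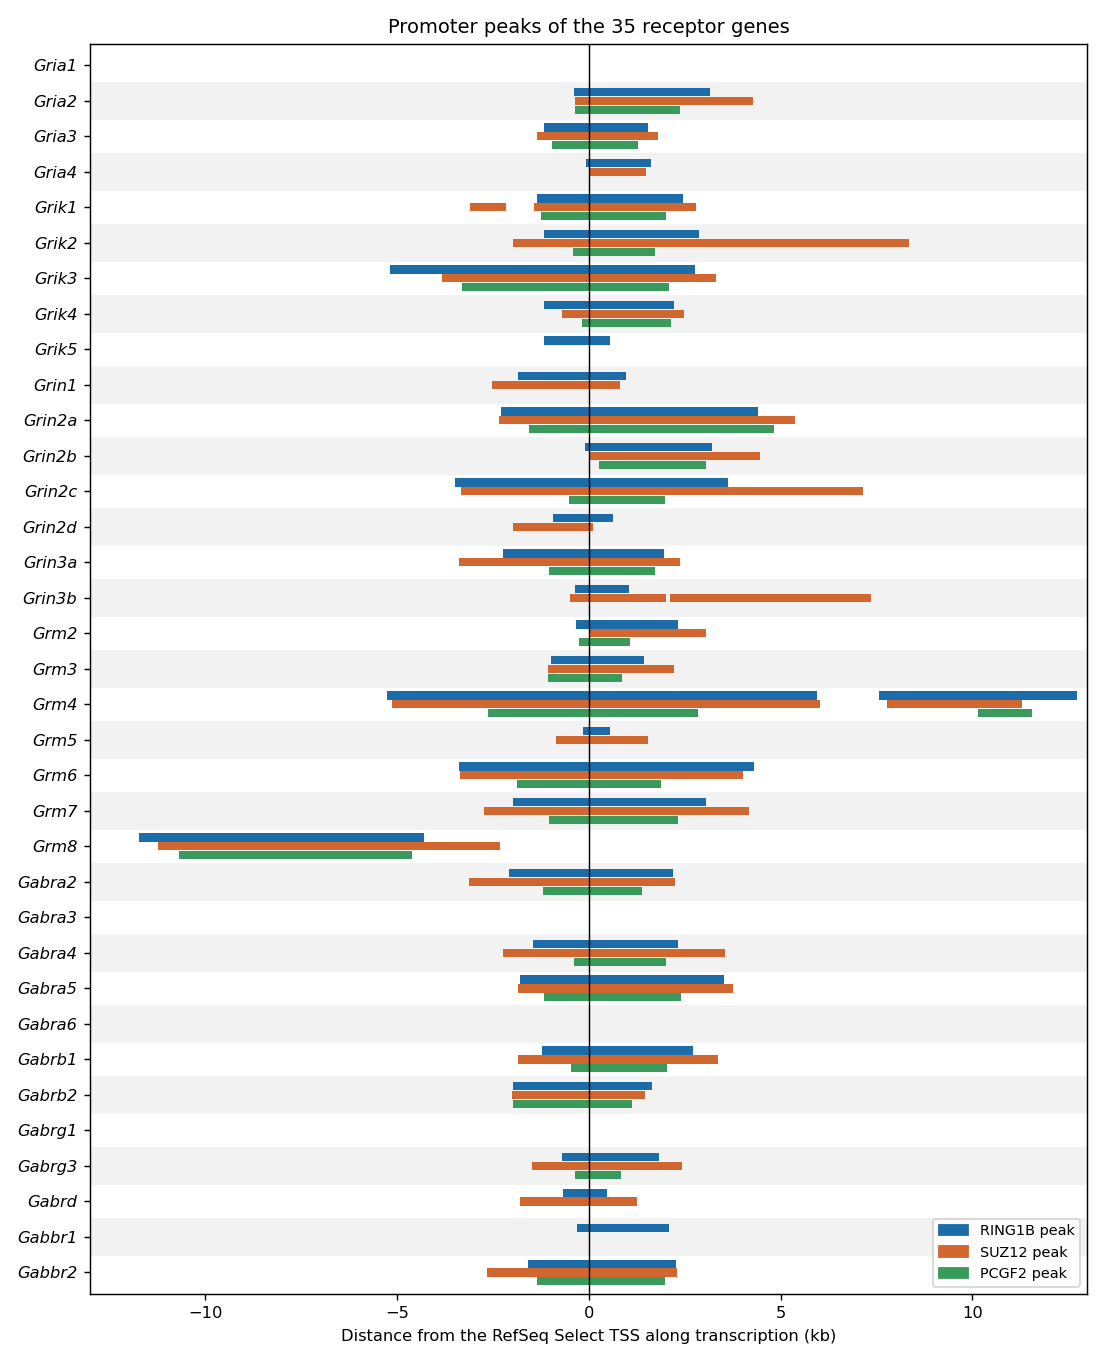
Peaks of RING1B (blue), SUZ12 (orange) and PCGF2 (green) that reach a promoter window of each of the 35 genes, drawn to scale by distance from the RefSeq Select TSS (kb, negative is upstream). Gria1, Gabra3, Gabra6 and Gabrg1 are empty, the peaks of Grm8 lie upstream of its Select start, and the pair of peak groups at Grm4 marks 2 starts; the shared peaks at the upstream start of Gabrb1, beyond the left edge, are not drawn.

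AMPA receptors carry most fast excitatory transmission, and 3 of their 4 subunit genes had RING1B and SUZ12. Gria2, which encodes the subunit that keeps these channels closed to calcium, had a RING1B peak of 3548 bp, a SUZ12 peak of 4634 bp and a PCGF2 peak of 2760 bp. Gria3 on chromosome X had peaks of 2696, 3132 and 2236 bp in the same order. Gria4 had narrower peaks, 1704 bp for RING1B and 1460 bp for SUZ12, and no PCGF2. Its SUZ12 peak began 22 bp downstream of the TSS, and its RING1B peak also held the start of the unnamed locus Gm46100. Gria1, the remaining member, had none at either of its 2 starts, and the nearest RING1B peak lay 288 kb away. The AMPA genes therefore fell in 3 of the 4 peak classes.

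Kainate receptor genes all had RING1B, and 4 of 5 had all 3 proteins. Grik1, Grik2 and Grik3 encode the subunits that can form channels by themselves. The peaks of Grik3 were among the widest of all receptor genes, with 7939 bp for RING1B (wider than 96.6% of the peaks in that list), 7152 bp for SUZ12 and 5397 bp for PCGF2. At Grik2 a single SUZ12 peak of 10319 bp ran 8347 bp into the gene. Its RING1B promoter peak of 4036 bp ended 2879 bp downstream of the TSS, and its PCGF2 promoter peak spanned 2146 bp. Another RING1B peak, of 3974 bp, lay further into the gene under the same SUZ12 peak. It overlapped another PCGF2 peak, of 2989 bp, so RING1B and PCGF2 did not stop at the promoter. Grik1 had peaks of 3831, 4218 and 3238 bp for RING1B, SUZ12 and PCGF2. Grik4 and Grik5 encode the subunits that bind with high affinity but need a partner, and they differed. Grik4 had all 3 proteins, with peaks of 3397, 3170 and 2336 bp. Grik5 had only a RING1B peak of 1710 bp, which also reached the promoter window of its neighbour Zfp574.

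NMDA receptors are the calcium-permeable channels tied to synaptic plasticity. All 7 of their genes had RING1B and SUZ12, and 4 had PCGF2. Grin1, which encodes the subunit every NMDA receptor needs, was without PCGF2, with a RING1B peak of 2825 bp and a SUZ12 peak of 3340 bp. The 4 glutamate-binding subunits spanned a wide range. Grin2a had the widest PCGF2 peak of all receptor genes at 6369 bp, with 6693 bp of RING1B and 7711 bp of SUZ12. Grin2c had 7113 bp of RING1B and 10497 bp of SUZ12 but only 2517 bp of PCGF2, so that PCGF2 covered 35.4% of its RING1B peak. At Grin2b all the peaks lay almost wholly inside the gene: RING1B (3317 bp) began 111 bp upstream of the TSS, SUZ12 (4421 bp) 36 bp downstream and PCGF2 (2777 bp) 267 bp downstream. Grin2d had short peaks, 1565 bp of RING1B and 2104 bp of SUZ12, displaced from each other so that SUZ12 covered 67.1% of the RING1B peak, the lowest share among the 29 genes with both. Grin3a and Grin3b encode glycine-binding subunits and were again unlike each other. Grin3a had peaks of 4194, 5761 and 2763 bp for RING1B, SUZ12 and PCGF2. Grin3b had 1414 bp of RING1B, no PCGF2 and 2 SUZ12 peaks, one of 2489 bp over the TSS and one of 5221 bp that ran from 2127 to 7347 bp downstream, past the end of this 6.47 kb gene.

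Metabotropic receptor genes all had RING1B and SUZ12, and all but Grm5 had PCGF2. They included the widest RING1B and SUZ12 peaks of the receptor genes. At Grm4 the RING1B peak measured 11223 bp (chr17:27507439-27518661; wider than 98.2% of RING1B peaks), the SUZ12 peak 11151 bp and the PCGF2 peak 5451 bp. Grm4 belongs with Grm6, Grm7 and Grm8 to the group III receptors, which lower cyclic AMP. Grm6, known from ON bipolar cells of the retina, had 7698, 7397 and 3745 bp of RING1B, SUZ12 and PCGF2, and Grm7 had 5053, 6893 and 3356 bp. Grm8 had 7445, 8922 and 6086 bp. All 4 of these genes had peaks wider than 5 kb for RING1B and SUZ12. The group II genes Grm2 and Grm3, which couple to the same G proteins, had narrower ones. Grm2 had 2658 bp of RING1B, 3055 bp of SUZ12 and 1324 bp of PCGF2. Grm3 had 2441, 3303 and 1929 bp. Grm5, a group I receptor that raises intracellular calcium, had the narrowest RING1B peak of all, 716 bp, under a SUZ12 peak of 2400 bp.

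GABA-A receptors are assembled from alpha, beta and gamma or delta subunits, and 7 of the 10 genes listed had RING1B and SUZ12. The alpha genes were divided. Gabra5, whose subunit is typical of hippocampal receptors outside synapses, had peaks of 5304, 5612 and 3567 bp for RING1B, SUZ12 and PCGF2. Gabra2 had 4287, 5361 and 2583 bp. Gabra4 had 3780, 5782 and 2387 bp. Gabra3 on chromosome X, with 3 starts, and Gabra6, known from cerebellar granule cells, had none, and their nearest RING1B peaks lay 168 and 97.7 kb away. Both beta genes listed had all 3 proteins. Gabrb1 had 3943 bp of RING1B, 5218 bp of SUZ12 and 2489 bp of PCGF2 at its Select start. Gabrb2 had 3621, 3474 and 3096 bp, and each of its 4 starts lay in reach of all 3. The gamma genes split like the alpha genes. Gabrg3 had peaks of 2534, 3919 and 1192 bp, its PCGF2 peak being the narrowest among the receptor genes, and the same peaks held the start of the neighbouring locus Gm9962. Gabrg1 had none, with the nearest RING1B peak 251 kb away. Gabrd, whose subunit serves tonic inhibition, had 1140 bp of RING1B and 3055 bp of SUZ12 without PCGF2.

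The GABA-B receptor is an obligate pair of subunits whose genes were marked differently. Gabbr2, whose product couples to the G protein, had peaks of 3865, 4967 and 3332 bp for RING1B, SUZ12 and PCGF2. Gabbr1, whose product binds GABA, had only a RING1B peak of 2388 bp. Gabbr1 and Grik5 were thus the receptor genes with RING1B alone, and their median RING1B width was 2049 bp, against 1233 bp over all genes with RING1B and no SUZ12.

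GABA-A receptor genes lie in clusters, and neighbours did not always share a class. On chromosome 5, Gabrg1 (no peak), Gabra2, Gabra4 and Gabrb1 (all 3 proteins) follow each other. Gabra4 and Gabrb1 are transcribed in opposite directions, and the start of Gabra4 and the upstream start of Gabrb1 shared the same peak of each list: RING1B at chr5:71655992-71659771, SUZ12 at chr5:71654752-71660533 and PCGF2 at chr5:71656306-71658692. These shared peaks count for both genes. Gabrb1 also had its own peaks at a second start 42011 bp downstream, so its call did not rest on the shared ones. On chromosome 11, Gabra6 (no peak) lies 99.7 kb from Gabrb2 (all 3 proteins). On chromosome 7, Gabrg3 and Gabra5, 123 kb apart, both had all 3.

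**Figure D2:**
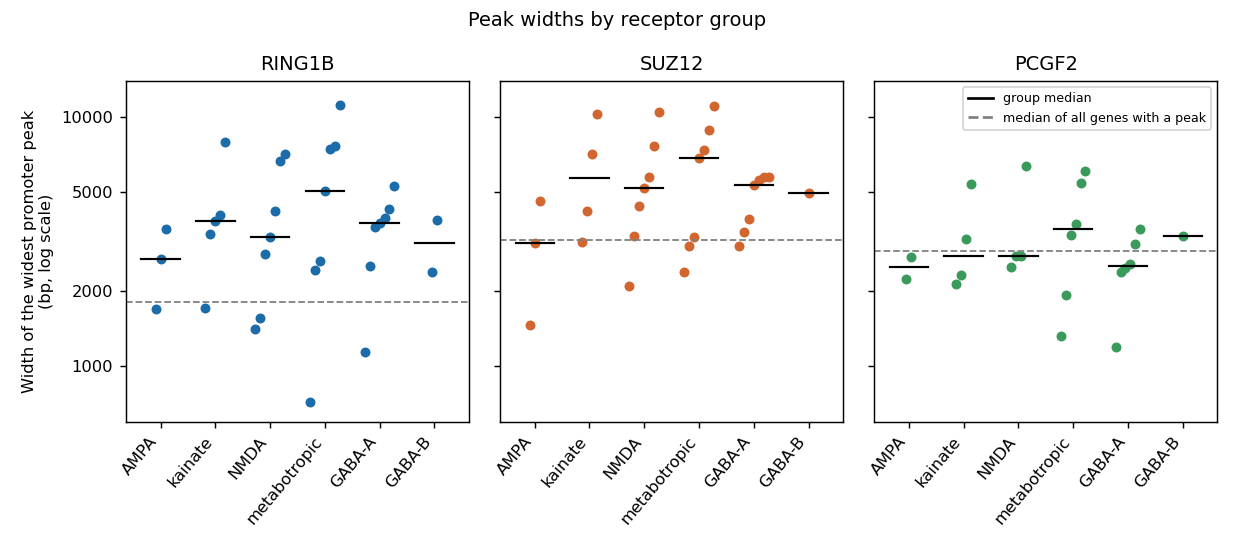
Width of the widest promoter peak (bp, log scale) of each receptor gene that has one, by receptor group, for RING1B, SUZ12 and PCGF2; points are genes, black lines group medians and dashed lines the median over all genes with such a peak (1810, 3232 and 2912 bp). RING1B widths of metabotropic genes reach from 716 to 11223 bp, a range that encloses every other group.

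Widths were compared within a list only, because the lists were selected by different rules. The median widest RING1B peak was 5053 bp for metabotropic, 3831 bp for kainate, 3317 bp for NMDA and 2696 bp for AMPA receptor genes, and 3780 bp for GABA-A and 3126.5 bp for GABA-B receptor genes. The groups overlapped, and with 2 to 7 genes each they could not be ordered. Over the 29 receptor genes with both proteins the median RING1B width was 3780 bp, against 3323 bp over all 6410 genes with both. For genes with all 3 proteins the order was the other way round, with 3943 bp at receptor genes and 4915.5 bp at all such genes. SUZ12 peaks had a median of 4967 bp (range 1460 to 11151 bp) at receptor genes and 3232 bp at all genes with SUZ12. PCGF2 peaks had a median of 2763 bp (range 1192 to 6369 bp), near the 2912 bp of all genes with PCGF2.

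RING1B peaks mostly sat on the start and reached further into the gene than away from it. Both shares were near those of all genes with RING1B and SUZ12. Of the 29 genes with RING1B and SUZ12, the widest RING1B peak held the Select TSS at 28, Grm8 being the exception, and 91.1% of all genes with both did so. It reached further downstream than upstream at 22 of the 29, and at 67.7% of all genes with both. The median reach was 1362 bp upstream and 2269 bp downstream, against 1364 and 1785 bp over all genes with both. The start codon lay inside the RING1B peak at 21 of the 29, and at 70.6% of the 5652 coding genes with both. Of all bases in these peaks, 44.0% were outside the Select transcript, 42.5% in its introns, 8.40% in its untranslated exon sequence and 5.04% in its coding sequence. The 44.0% includes the whole Grm8 peak of 7445 bp, although that peak covers an upstream start of Grm8. This split was not made over all genes. SUZ12 covered at least 90% of the RING1B peak at 24 of the 29, against 55.1% of all genes with both. The SUZ12 peak was the wider one at 23, against 50.8% of all genes with both, though the edges of the lists were set in separate peak calls.

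The genes with several starts showed where within a gene the peaks lay. Grm8 has a start with a CpG observed/expected ratio of 0.76 (the number of CpGs over that expected from the C and G content, counted 500 bp to each side of the TSS) and its Select start, 8720 bp downstream, has a ratio of 0.22. All 3 proteins covered the first, and the window of the second was touched by the edge of the SUZ12 peak only. A further start of Grm8, 7995 bp upstream of the Select one, had a ratio of 0.46 and all 3 proteins in its window. Grm4 showed a second group of peaks, 5141 bp of RING1B, 3511 bp of SUZ12 and 1412 bp of PCGF2, at a start 9864 bp downstream of the Select one, where the ratio was 0.25 against 0.96. Another start of Grm4, 16863 bp downstream, had none. Of the 11 genes with more than 1 start, Grm4 and Grm8 were the only ones whose starts differed in their calls.

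**Figure D3:**
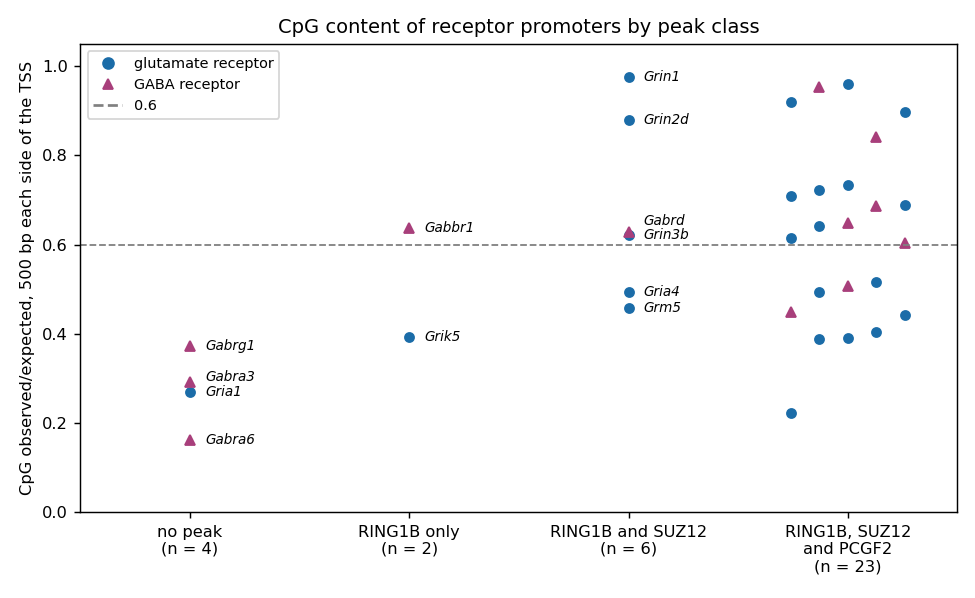
CpG observed/expected ratio within 500 bp of the RefSeq Select TSS of each receptor gene, by the proteins with a promoter peak; circles are glutamate and triangles GABA receptor genes, and the dashed line marks 0.6. The 4 genes without a peak lie between 0.16 and 0.37, and the 23 genes with all 3 proteins spread from 0.22 to 0.96.

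Receptor genes without peaks had CpG-poor starts, and many receptor genes with peaks also lacked a CpG-rich start. A start was called CpG-rich where the ratio was at least 0.6 and the GC content at least 50%. By this measure 19 of the 35 receptor genes were CpG-rich (54.3%), as were 42.8% of all genes. The ratio had a median of 0.28 (0.16 to 0.37) at the 4 genes without a peak, and 0.64 (0.22 to 0.96) at the 23 with all 3 proteins. It did not order the other classes: the 6 genes with RING1B and SUZ12 had a median of 0.63, with Grin1 at 0.98 and Grm5 at 0.46.

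Among the 19 CpG-rich receptor genes, all had RING1B, against 88.7% of all CpG-rich genes. SUZ12 was at 18 of them, against 40.0%, and PCGF2 at 14, against 22.8%. Among the 16 receptor genes without a CpG-rich start, RING1B was at 12, against 26.6% of all genes of that kind, SUZ12 at 11, against 13.4%, and PCGF2 at 9, against 6.46%. The remaining 4 of the 16 had no peak, against 73.0%. Since a CpG-rich stretch could lie off the Select TSS, as at Grm8, the whole promoter windows were searched as well, a step added after these values were seen. A CpG-rich stretch of the same length was found in the windows of 24 receptor genes and of 51.1% of all genes. The 11 genes without one were Gria1, Gria3, Gria4, Grik5, Grm2, Grm3, Grm5, Gabra3, Gabra6, Gabrb2 and Gabrg1, and RING1B was at 7 of them, against 16.8% of all genes of that kind. SUZ12 was at 6 of the 11, against 7.24%, and PCGF2 at 4, against 2.28%. Gria3, Grm2, Grm3 and Gabrb2 thus had all 3 proteins with no CpG-rich stretch in reach of a start.

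Further RING1B peaks lay inside receptor genes, away from their promoters. At least 1 such peak was found in 13 of the 35 genes (37.1%), against 9.40% of all genes. Because longer genes can hold more peaks, the genes were divided at 100 kb. Among the 22 receptor genes of at least 100 kb, 5 had one, close to the 24.0% of all genes of that length. Among the 13 shorter ones 8 had one, against 7.91% of all shorter genes. These were 11 glutamate and 2 GABA receptor genes. Of the 22 peaks, 16 overlapped SUZ12 and 8 overlapped PCGF2, against 35.4% and 17.3% of the 3970 such peaks over all genes.

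**Figure D4:**
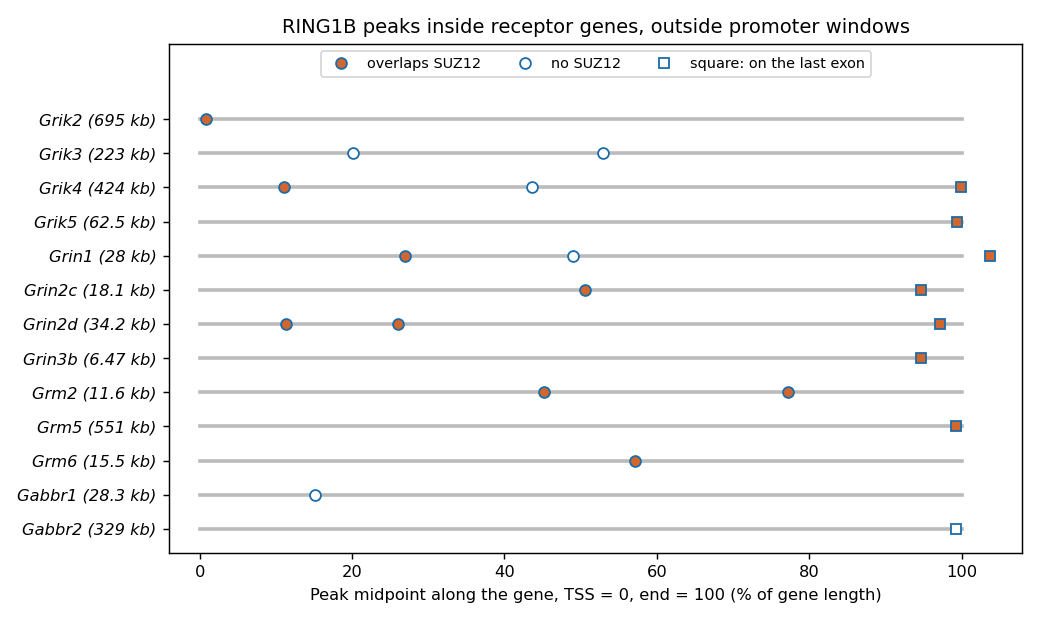
Midpoints of the 22 RING1B peaks inside receptor genes and outside their promoter windows, along each gene from the TSS (0) to its end (100, in % of gene length, given in kb beside the name); filled symbols overlap SUZ12 and squares lie on the last exon. The 8 squares gather at the right edge, and the midpoint for Grin1 falls beyond the gene end.

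Several of them lay at the far end of the gene, a pattern that was counted after it had been seen. RING1B touched the last exon, where that exon was outside the promoter windows, in 8 of the 35 genes (22.9%), against 4.87% of the 19827 genes whose last exon lay there. The genes were Grik4, Grik5, Grin1, Grin2c, Grin2d, Grin3b, Grm5 and Gabbr2. Peaks of SUZ12 away from the promoter were on the last exon of 6 (17.1%), against 2.25%, and those of PCGF2 on that of 5 (14.3%), against 0.958%. The RING1B peak that touched the last exon measured 5953 bp at Grin2d, wider than the 1565 bp at its promoter. At Grin1 it measured 6163 bp, against 2825 bp at its promoter. Both peaks ran past the end of the gene. Widths given here are of whole peaks and not of the part on the exon. Grm5, whose promoter peak was the narrowest, had 2458 bp of RING1B with SUZ12 and PCGF2 at the last exon, 547 kb from its TSS. Grik5, with RING1B alone at its promoter, had a peak of 5202 bp with both other proteins at its last exon. So did Grin1, Grin2c and Grin2d, and Grin1, Grin2d and Grm5 had no PCGF2 at the promoter. Other genes were close by in some cases. Some of the 8 peaks also reached a promoter window of another gene, among them Grin1os, Lrrc26 and Tmem210 at Grin1, and Grwd1 at Grin2d. Their part in the peaks was not tested.

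**Figure D5:**
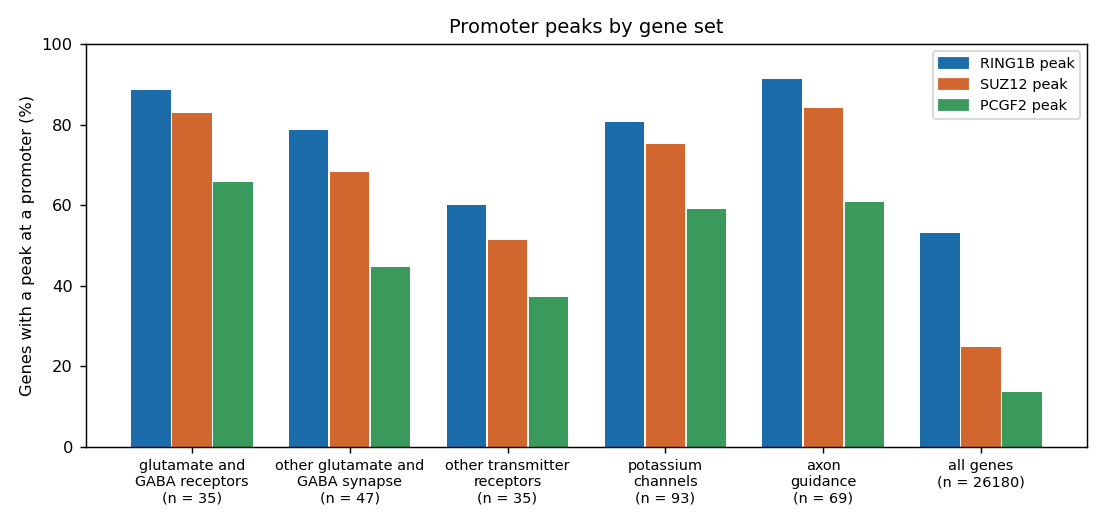
Share of genes (%) with a RING1B, SUZ12 or PCGF2 peak at a promoter, for the 35 receptor genes, 47 other genes of glutamate and GABA synapses, 35 other transmitter receptor genes, 93 potassium channel genes, 69 axon guidance genes and all 26180 genes. Receptor genes stand at 88.6%, 82.9% and 65.7%, near axon guidance genes (91.3%, 84.1% and 60.9%) and above all genes (53.2%, 24.8% and 13.5%).

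Other sets of neuronal genes also had peaks at many promoters. Axon guidance genes (semaphorins, plexins, ephrins, slits, netrins and their receptors) had RING1B at 91.3%, SUZ12 at 84.1% and PCGF2 at 60.9% of 69 genes. Potassium channel genes had 80.6%, 75.3% and 59.1% of 93. The other transmitter receptor genes, for acetylcholine, glycine and serotonin, had 60.0%, 51.4% and 37.1% of 35. Differences between these sets and the receptor genes were not tested.

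The other genes of glutamate and GABA synapses, 47 in all, had RING1B at 37 (78.7%), SUZ12 at 32 (68.1%) and PCGF2 at 21 (44.7%), and 8 had no peak. Among the 18 genes for transmitter synthesis and transport, 16 had RING1B, 12 SUZ12 and 9 PCGF2. The widest SUZ12 peaks of that group were at Gad1 (13132 bp) and Gad2 (11594 bp), which make GABA, and at Slc32a1 (10650 bp), which loads it into vesicles. All 3 exceeded the 5782 bp that was the widest SUZ12 peak at a GABA receptor gene. Among the 14 auxiliary subunit genes, which encode partners that sit with the receptors in the membrane, 9 had RING1B, 10 SUZ12 and 6 PCGF2, led by Shisa6 (8100 bp of SUZ12), Shisa9 (7911 bp) and Cacng4 (7791 bp). Among the 15 scaffold genes, 12 had RING1B, 10 SUZ12 and 6 PCGF2, led by Homer2 (8259 bp), Shank1 (6988 bp) and Shank3 (5304 bp). Genes without a RING1B peak included Slc17a8, Slc6a13, Cacng2, Cacng3, Cacng5, Cacng8, Cnih2, Dlg2 and Dlg3. Of these, Cacng2 and Cacng3 had SUZ12 peaks of 837 and 983 bp.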

How the data were processed

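Calibrated ChIP-seq was performed in untreated PRC1CPM and PRC1CKO ESCs. The authors aligned reads with Bowtie 2 to mm10 joined to hg19, removed duplicates, and called broad peaks with MACS2 against Input. Per the methods, RING1B and SUZ12 peaks were called on merged replicates and kept where found in both lines, RING1B peaks had also to be lost in tamoxifen-treated PRC1CKO cells, and PCGF2 peaks had to be found in all PRC1CPM replicates. RING1B samples of PRC1CKO cells were not analysed here. The deposited lists give chromosome, start and end, with no signal, count or p-value. Coordinates are printed 1-based.

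Overlaps of at least 1 bp with TSS ± 2500 bp were computed over curated RefSeq transcripts of GRCm38.p6 (mm10), with the RefSeq Select transcript for positions and CpG content. Python 3.11.15, NumPy 2.4.6, pandas 2.3.3, pysam 0.24.0 and matplotlib 3.10.9 were used, and the overlap code was tested on simulated data. All 35 receptor genes are named. Of the other synapse genes, those with the 3 widest SUZ12 peaks in each group and those without RING1B are named, except where a result is not reported here. Sequences were chosen within each family by the widest PCGF2 peak, the widest RING1B peak without PCGF2 and the lowest CpG ratio with no peak, among genes with an entry in the RefSeq table, which put Grm8 in place of Grin2a. The members and lists were chosen with earlier results of these data known. No replicate could be left out, and 10 other settings of the promoter, overlap and peaks were tried. Signal in treated cells was not analysed here.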

Additional observations from a re-analysis of the deposited data

How the results depend on the processing

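The counts of receptor genes with RING1B, SUZ12, PCGF2 and all 3 (31, 29, 23 and 23) were the same with windows of 500, 1000 or 5000 bp on either side, an overlap of at least 500 bp, merging of peaks closer than 1 kb, or predicted transcripts. They were 31, 26, 22 and 21 where a peak had to contain the TSS, 30, 29, 23 and 23 with peaks of at least 1 kb (Grm5 was lost), and 30, 29, 22 and 22 with 1 transcript per gene (Grm8 was lost). With at least 50% of the window covered, RING1B was at 23 and SUZ12 at 24, against 18.1% and 14.0% of all genes. PCGF2 and all 3 proteins were then at 14 each, against 7.63% and 7.51% of all genes, since that setting asks for wide peaks. The median RING1B width at genes with SUZ12, 3780 bp, became 3848 bp where the peak contained the TSS, 4036 bp with 50% of the window covered, 3805.5 bp with peaks of at least 1 kb and 3700.5 bp with 1 transcript per gene. The search of whole windows for CpG-rich stretches, added after seeing the data, raised the receptor genes with one from 19 to 24. No paired analysis was possible because the peaks were deposited without values for single replicates, and leaving out a replicate was likewise not possible. A missing peak does not show missing binding, and the lists do not tell whether the proteins shared a cell or an allele.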
